A study of Mus musculus with 15 samples.

Results

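The Bcl2 family decides whether the mitochondrial outer membrane of a cell stays intact or is opened. The 10 family genes described here were taken by symbol from the 40402 genes of the count table. They are the 3 anti-apoptotic genes Bcl2, Bcl2l1 (Bcl-xL) and Mcl1, the effector Bak1, and the 6 BH3-only genes Bcl2l11 (Bim), Bid, Bad, Pmaip1 (Noxa), Bmf and Bik. They were measured by bulk RNA-seq in 4T1 cells, a mouse mammary carcinoma line used as a model of triple-negative breast cancer, all labelled wild type. The 5 conditions were untreated cells, cells given blackberry extract (BLA), cells given blueberry extract (BLU), and cells given gold nanoparticles made with the blackberry (BLA-A) or the blueberry (BLU-A) extract, and treatment began 24 h after seeding. A common concentration was chosen for all treatments in the study, the labels give no dose, and the length of exposure behind the sequenced RNA is not given in the sources used here. All cells were of 1 line, and no sample received gold without berry material.

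Each condition had 3 columns of counts, and the 3 columns agreed more closely than separate draws of reads would, with a chi-square per degree of freedom between 0.0951 and 0.475 where 1 is the value of pure counting noise. The study describes its replicates as independent. Its supplementary sequencing report lists 3 lettered read files per numbered sample under a heading of subset reads, while its alignment report counts 15 libraries. How the columns came to agree was not tested. The columns were averaged and counted as 1 library per condition, so no difference between 2 conditions has a replicate check. The labels give every sample its own batch date, so batch and treatment cannot be told apart. Library totals lay between 25613778 and 26956442 reads. The summed level of 6 epithelial markers (Krt8, Krt18, Epcam, Cdh1, Krt7 and Cldn7) was between 950.9 and 1709 CPM (counts scaled to library size), lowest in BLA and highest in BLA-A. In BLA-A 5 of the 6 were above untreated and 1, Epcam, was below, at 39.8 CPM against 69 untreated. Among leukocyte markers Cd68 had 6.91 to 8.83 CPM, Ptprc 0.184 to 1.5 CPM and Cd3e 0 to 0.151 CPM. The 3 endothelial markers summed to 1.772 to 4.071 CPM, the 2 adipocyte markers to 0 to 0.6803 CPM, and the 4 fibroblast markers to 88.36 to 103.7 CPM, nearly all of it from Pdgfra. The part of these markers in the results below was not tested.

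Anti-apoptotic members hold the effectors Bak and Bax, and the BH3-only proteins, inactive by binding them. BH3-only proteins report damage, loss of growth signals or receptor signals: some bind and neutralise the anti-apoptotic members, and Bim and Bid can also activate Bak and Bax directly. Free effectors oligomerise in the outer membrane, cytochrome c is released, and caspases are activated. The balance of the opposing kinds is much used as a readout of how near a cell is to this step, although phosphorylation, cleavage and protein turnover, none of which RNA counts measure, act on nearly every member.

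Members on opposite sides meet through the BH3 helix of the pro-apoptotic one, which lies in a groove on the surface of the anti-apoptotic one. The coding bases of the BH3 stretch are shown because members on both sides of the balance have one. The stretches below were read from the canonical GENCODE M39 transcripts on the GRCm39 genome, 5′ to 3′ on the coding strand, and each has 54 bases. Capitals mark the codons of the core, a leucine and, after 3 other residues, a glycine, alanine or serine followed by aspartate. The core was found exactly 1 time in the coding sequence of each of the 9 genes shown, and in 34.1% of all 21483 canonical coding transcripts, so the match alone does not set the family apart. Pmaip1 is named only.
Bcl2: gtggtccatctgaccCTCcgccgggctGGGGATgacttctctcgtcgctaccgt
Bcl2l1: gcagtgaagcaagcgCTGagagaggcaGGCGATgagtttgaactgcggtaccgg
Mcl1: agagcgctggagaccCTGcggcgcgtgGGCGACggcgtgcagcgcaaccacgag
Bak1: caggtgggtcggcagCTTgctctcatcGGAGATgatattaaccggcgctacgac
Bcl2l11: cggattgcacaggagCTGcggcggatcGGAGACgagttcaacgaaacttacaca
Bid: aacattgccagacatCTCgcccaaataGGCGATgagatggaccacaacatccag
Bad: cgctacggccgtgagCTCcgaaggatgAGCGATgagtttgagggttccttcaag
Bmf: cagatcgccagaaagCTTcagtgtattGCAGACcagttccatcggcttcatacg
Bik: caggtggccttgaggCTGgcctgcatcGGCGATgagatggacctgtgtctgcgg

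The anti-apoptotic stretches lie in exon 1 of Bcl2 (chr1:106640293-106640346, minus strand), exon 2 of Bcl2l1 (chr2:152671605-152671658, minus) and exon 1 of Mcl1 (chr3:95566732-95566785, plus). That of Bak1 lies in exon 4 (chr17:27241493-27241546, minus). Among the BH3-only genes they lie in exon 3 of Bcl2l11 (chr2:127989055-127989108, plus), exon 4 of Bid (chr6:120874238-120874291, minus), exon 2 of Bad (chr19:6928145-6928198, plus), exon 4 of Bmf (chr2:118375569-118375622, minus) and exon 3 of Bik (chr15:83427270-83427323, plus). Bad has serine in place of glycine in the core and Bmf has alanine, while the other 7 genes have glycine.

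Levels below are TMM-normalized CPM, in which each total is scaled by the trimmed mean of M-values, and changes are differences of log2(CPM + 0.5) from the untreated library. The bracketed 95% intervals are exact conditional intervals on the ratio of the counts without the added 0.5, and like all intervals here they cover counting error only. A total of 17647 genes reached 1 CPM in at least 1 library, and 9 of the 10 family genes were among them. Pmaip1 was not.

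**Figure D1:**
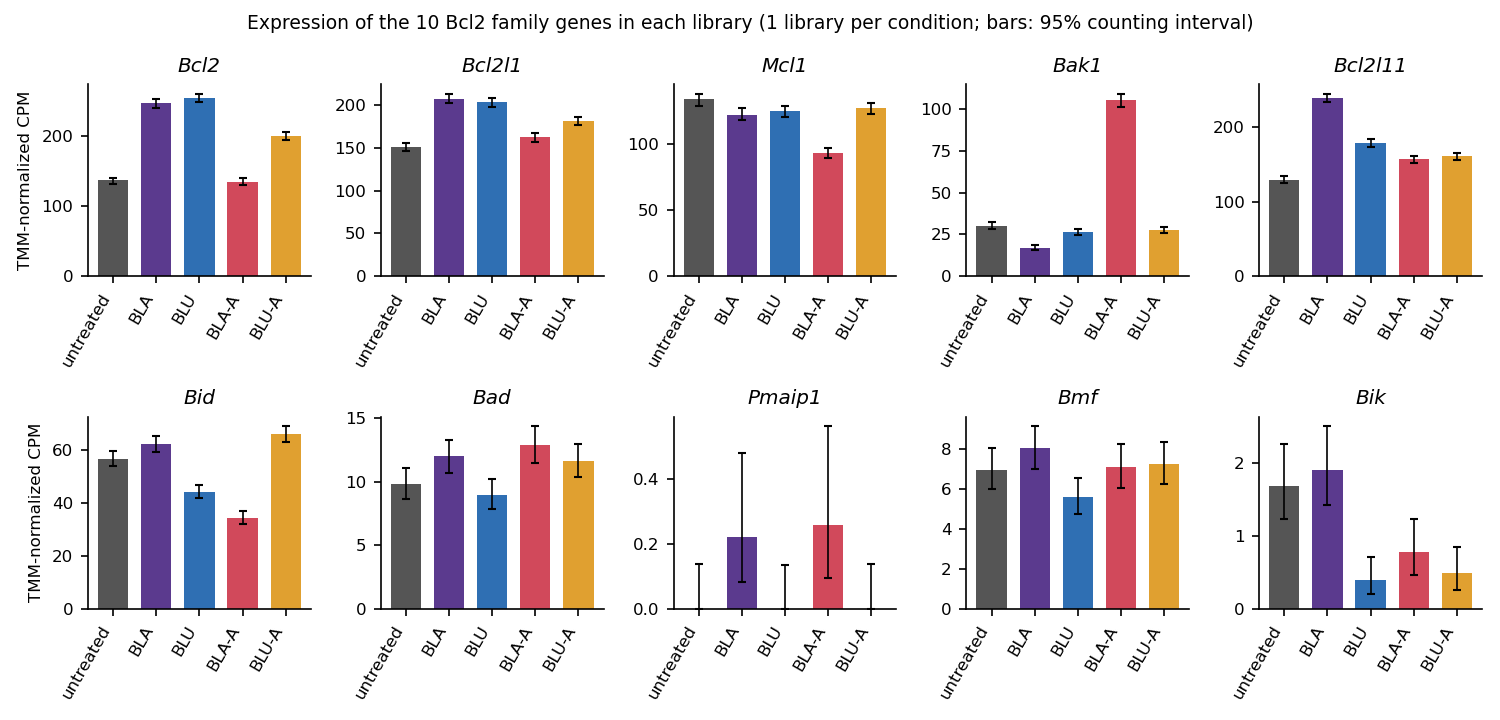
TMM-normalized CPM (y axis, from 0, own scale per gene) of each of the 10 genes in the 5 libraries (x axis); bars are 1 library each and error bars are 95% counting intervals. Bcl2, Bcl2l1 and Bcl2l11 are higher in both extracts than in untreated cells, and Bak1 reaches 105 CPM in BLA-A against at most 30.3 CPM elsewhere.

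Bcl2, the founding survival gene of the family, had 137 CPM in untreated cells, 247 in BLA and 135 in BLA-A, and 255 in BLU and 200 in BLU-A. Both extracts stood highest and did not differ beyond counting error, with BLU over BLA at 0.04 on the log2 scale (-0.01 to 0.09), while BLA-A lay at the untreated level with this scaling. The changes were 0.85 (0.80 to 0.91) in BLA and -0.02 (-0.09 to 0.05) in BLA-A, and 0.90 (0.84 to 0.96) in BLU and 0.55 (0.49 to 0.61) in BLU-A. Bcl2 was thus 1.81 and 1.86 times the untreated level with the extracts and 0.988 times with the blackberry nanoparticles. The BLA-A change was -0.21 when libraries were scaled by their totals and 0.04 with DESeq2 size factors. Fewer cells of a kind and less RNA per cell cannot be told apart in such bulk samples.

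Bcl2l1, which encodes Bcl-xL, the long-lived guard of the outer membrane, had 151 CPM untreated, 207 in BLA and 162 in BLA-A, and 203 in BLU and 181 in BLU-A. It was above untreated in all 4 treatments, by 0.46 (0.40 to 0.52) in BLA and 0.10 (0.04 to 0.17) in BLA-A, and 0.43 (0.37 to 0.49) in BLU and 0.27 (0.21 to 0.33) in BLU-A, and 19.4% of all genes tested were higher in all 4. The BLA-A value turned to -0.09 when libraries were scaled by their totals, a scaling that moved the median of all genes in BLA-A from -0.01 to -0.19. BLA and BLU did not differ beyond counting error (0.03, -0.02 to 0.09).

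Mcl1, a short-lived survival protein that cells must keep making, had 134 CPM untreated, 122 in BLA and 93 in BLA-A, and 125 in BLU and 127 in BLU-A. Of the 3 anti-apoptotic genes it alone was below untreated in all 4 treatments, as were 19.3% of all genes tested. The BLA-A library stood below the other 4, with 69.7% of the untreated level and a change of -0.52 (-0.60 to -0.44). That change was -0.71 when libraries were scaled by their totals and -0.43 with no filter on low counts. The other 3 changes were small, -0.13 (-0.19 to -0.06) in BLA, -0.10 (-0.17 to -0.03) in BLU and -0.07 (-0.14 to -0.01) in BLU-A, and BLA, BLU and BLU-A, in this order of level, did not differ between neighbours beyond counting error.

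Bak1, the effector that forms the membrane pore, had 30.3 CPM untreated, 17.2 in BLA and 105 in BLA-A, and 26.2 in BLU and 27.5 in BLU-A. The BLA-A library lay far above the other 4, whereas the plain blackberry extract lay below all of them. The changes were 1.77 (1.67 to 1.91) in BLA-A and -0.80 (-0.98 to -0.65) in BLA, against -0.20 (-0.35 to -0.06) in BLU and -0.14 (-0.29 to 0.01) in BLU-A. Bak1 was 3.46 times the untreated level in BLA-A, 6.07 times the level in BLA and 3.81 times that in BLU-A, while BLU-A and BLU differed by 0.07 (-0.08 to 0.22).

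The count of Bak1 could not be separated from that of Ggnbp1. Bak1 (GRCm39 chr17:27238784-27247983, minus strand) lies wholly within Ggnbp1 (chr17:27236961-27256598, plus strand). Ggnbp1 had 870 reads untreated, 579 in BLA and 2467 in BLA-A, and 785 in BLU and 792 in BLU-A, and Bak1 had 806, 469, 2423, 722 and 728 in the same order. The reads of both genes thus ran side by side, with 0.81 to 0.982 Bak1 reads for each Ggnbp1 read. The change of Ggnbp1 in BLA-A was 1.69. The study's counting was set to keep strand, but whether the libraries keep it is not given in the sources used here, so the high count in BLA-A cannot be assigned to Bak1 rather than Ggnbp1. The other large overlap was that of Bid, of which 91% lies within Bcl2l13 on the opposite strand. Bid and Bcl2l13 did not run together: there were 2 Bid reads for each Bcl2l13 read in BLA and 0.747 in BLA-A, where Bcl2l13 changed by 0.54.

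**Figure D2:**
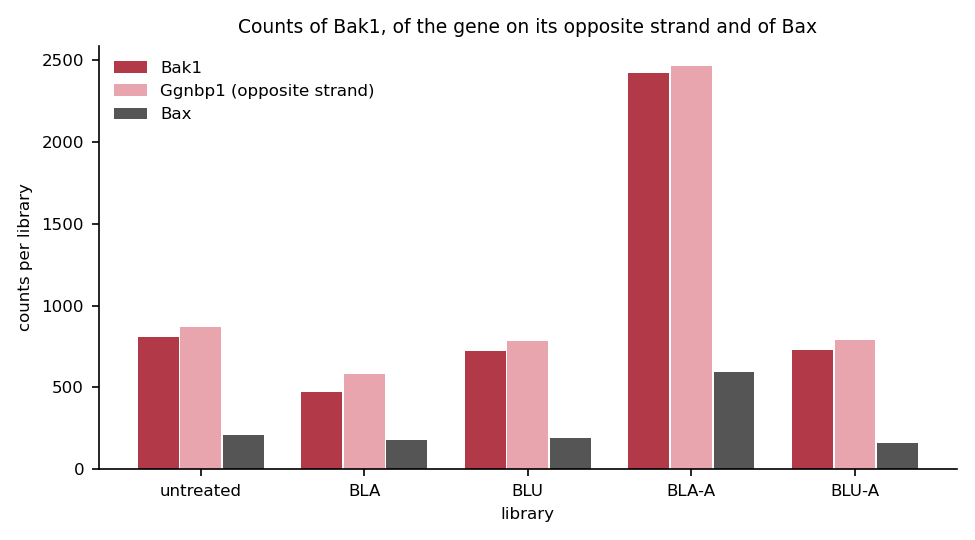
Counts per library (y axis, from 0) of Bak1, of Ggnbp1 on the opposite strand and of Bax, in the 5 libraries (x axis). Bak1 and Ggnbp1 bars are nearly equal in each library, from 469 and 579 reads in BLA to 2423 and 2467 in BLA-A, and Bax is also highest in BLA-A, at 591 reads.

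Bax, the partner effector of Bak and not among the 10 genes, had 7.78 CPM untreated, 6.44 in BLA and 25.5 in BLA-A, and 6.98 in BLU and 5.97 in BLU-A. Its pattern was that of the Bak1 count, high in BLA-A alone, with a change of 1.65 (1.48 to 1.95) there and between -0.36 and -0.15 in the other 3 treatments. No gene of the count table overlaps Bax in the annotation used.

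Bcl2l11, the BH3-only gene of Bim, which binds every anti-apoptotic member and can activate the effectors, had 129 CPM untreated, 239 in BLA and 157 in BLA-A, and 179 in BLU and 161 in BLU-A. It was above untreated in all 4 treatments, by 0.89 (0.83 to 0.95) in BLA and 0.28 (0.21 to 0.35) in BLA-A, and 0.47 (0.40 to 0.53) in BLU and 0.32 (0.25 to 0.38) in BLU-A. The BLA-A change was 0.09 with scaling by totals. BLA stood above BLU by 0.42 (0.37 to 0.48), and BLU-A and BLA-A did not differ beyond counting error (0.04, -0.03 to 0.10). As for Bcl2l1, the largest value was in BLA and the smallest in untreated cells.

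Bid, which caspase-8 cleaves to link death receptors to the mitochondrion, had 56.7 CPM untreated, 62.4 in BLA and 34.5 in BLA-A, and 44.2 in BLU and 66 in BLU-A. It split within each berry. The nanoparticle library lay below its extract for blackberry (-0.84, -0.98 to -0.73) and above it for blueberry (0.57, 0.47 to 0.68). Against untreated it was at 60.9% in BLA-A, with a change of -0.71 (-0.84 to -0.59), and at 78% in BLU, with a change of -0.35 (-0.47 to -0.25).

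Bad, whose binding to Bcl-xL is switched off by survival kinases, moved little. It had 9.81 CPM untreated, 12 in BLA and 12.9 in BLA-A, and 8.98 in BLU and 11.6 in BLU-A. The largest change was 0.38 (0.15 to 0.64), in BLA-A, and among neighbours in the order only BLU-A over untreated was beyond counting error, barely (0.25, 0.0043 to 0.49). Bmf, a BH3-only protein that is held at the cytoskeleton until released, had 6.95 CPM untreated, 8.02 in BLA and 7.09 in BLA-A, and 5.6 in BLU and 7.22 in BLU-A. All 4 of its changes lay between -0.29 and 0.19, and none had an interval clear of 0.

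Bik, a BH3-only protein of the endoplasmic reticulum, was rare, with 45 reads untreated, 52 in BLA and 18 in BLA-A, and 11 in BLU and 13 in BLU-A, or 1.69, 1.91, 0.778, 0.4 and 0.491 CPM in the same order. The 3 libraries other than untreated and BLA were low, and neighbours among them did not differ beyond counting error. The changes were 0.14 (-0.43 to 0.79) in BLA and -0.78 in BLA-A, and -1.28 in BLU and -1.14 in BLU-A, and on the ratio of the counts alone the interval was -3.18 to -1.11 in BLU and -2.80 to -0.87 in BLU-A and ended at -0.30 in BLA-A. Pmaip1, the gene of Noxa, a BH3-only protein that binds chiefly Mcl-1, had 6 reads in BLA, 6 in BLA-A and 0 in the other 3 libraries, where a count of 0 allows up to 3 reads, or 0.109 to 0.113 CPM in those libraries. The 2-sided 95% intervals drawn in the plot of levels end at 3.69 reads. At this depth Noxa mRNA was hardly detected, and its log2 change is given only for its weight in the balance below.

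**Figure D3:**
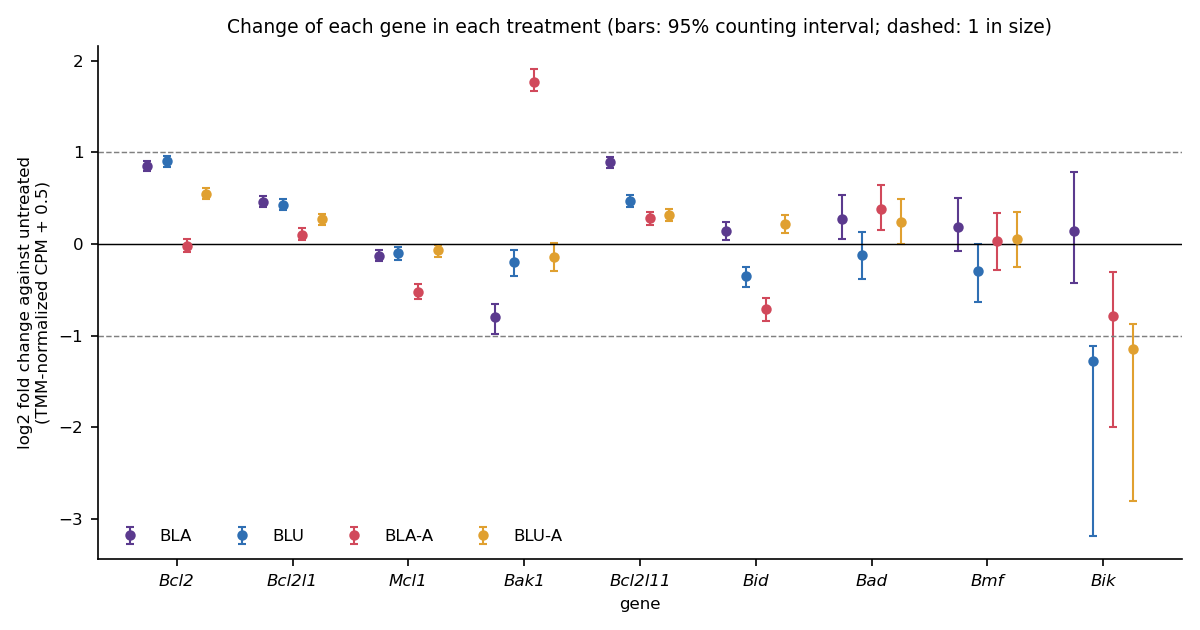
Log2 fold change of TMM-normalized CPM + 0.5 against untreated (y axis) for the 9 genes that passed the filter (x axis), with 1 point per treatment; error bars are 95% counting intervals of the count ratio without the 0.5, and dashed lines mark 1 in size. Past the dashed lines are Bak1 in BLA-A (1.77) and Bik in BLU (-1.28) and BLU-A (-1.14).

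Few of the 9 genes moved by more than 1 on the log2 scale. In BLA there were 0, where 16.5% of all genes tested were past 1 in either direction. In BLU there was 1, Bik, below untreated, where 10.3% were past 1 in either direction and 4.64% were below. In BLA-A there was 1, Bak1, above untreated, where 20.9% were past 1 and 8.54% were above. In BLU-A there was 1, again Bik, below untreated, where 7.85% were past 1 and 4.51% were below. Both calls of Bik, from 11 and 13 reads, were lost with 2 CPM added in place of 0.5, which gave -0.62 in BLU and -0.57 in BLU-A, and Bik was not kept where 1 CPM was required in every library. A count of 1 among 9 genes is too small to be read as more or less than these shares. The median change of the 9 genes was 0.19 in BLA and 0.03 in BLA-A, and -0.12 in BLU and 0.22 in BLU-A, beside medians of -0.01, -0.01, -0.01 and 0.0015 over all genes tested.

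The balance of the opposing kinds was summarised as the mean log2(CPM + 0.5) of the 7 pro-apoptotic genes minus that of the 3 anti-apoptotic genes. It was -3.68 untreated, -3.88 in BLA and -3.31 in BLA-A, and -4.34 in BLU and -3.99 in BLU-A. By this measure only the blackberry nanoparticle library lay on the pro-apoptotic side of untreated, by 0.37 (0.25 to 0.49). The other 3 lay on the anti-apoptotic side, by -0.20 (-0.31 to -0.09) in BLA, -0.66 (-0.77 to -0.56) in BLU and -0.31 (-0.42 to -0.21) in BLU-A. Without Bak1 the change in BLA-A was 0.11, and without Bcl2 that in BLA was 0.03, so 1 gene carried much of each value. The mean gives a rare gene such as Bik the same weight as an abundant one. Without Bik the change in BLU was -0.49 and that in BLU-A was -0.13. Pmaip1 entered the mean too, at 0.60 in BLA-A and 0.53 in BLA, from 6 reads in each against 0 untreated. The 0.11 without Bak1 and the 0.03 without Bcl2 thus rest in part on these few reads. The direction also depended on the measure. As the log2 ratio of counts summed per kb of gene span, the change was positive in all 4 treatments. It was 0.30 in BLA, 0.06 in BLU, 0.16 in BLU-A and 1.32 in BLA-A. On that scale Mcl1 dominated the anti-apoptotic sum, with 29.9 untreated beside 2.95 for Bcl2l1 and 0.776 for Bcl2.

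A sum of CPM per kb of exon weights the genes by their level instead. The anti-apoptotic genes summed to 82.4 untreated, 102 in BLA and 72.8 in BLA-A, and 103 in BLU and 93.4 in BLU-A, and the pro-apoptotic genes to 35, 41.8, 67, 36.2 and 38.2 in the same order. The ratio of pro- to anti-apoptotic sums was 0.425 untreated, 0.409 in BLA and 0.92 in BLA-A, and 0.352 in BLU and 0.409 in BLU-A, so it was near the untreated value in BLA and BLU-A and highest in BLA-A. Bak1, with the reservation about Ggnbp1, made up 64.9% of the pro-apoptotic sum in BLA-A and between 17.1% and 36% elsewhere. Bim made up 56.6% in BLA, 48.8% in BLU, 41.8% in BLU-A, 36.6% untreated and 23.2% in BLA-A.

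**Figure D4:**
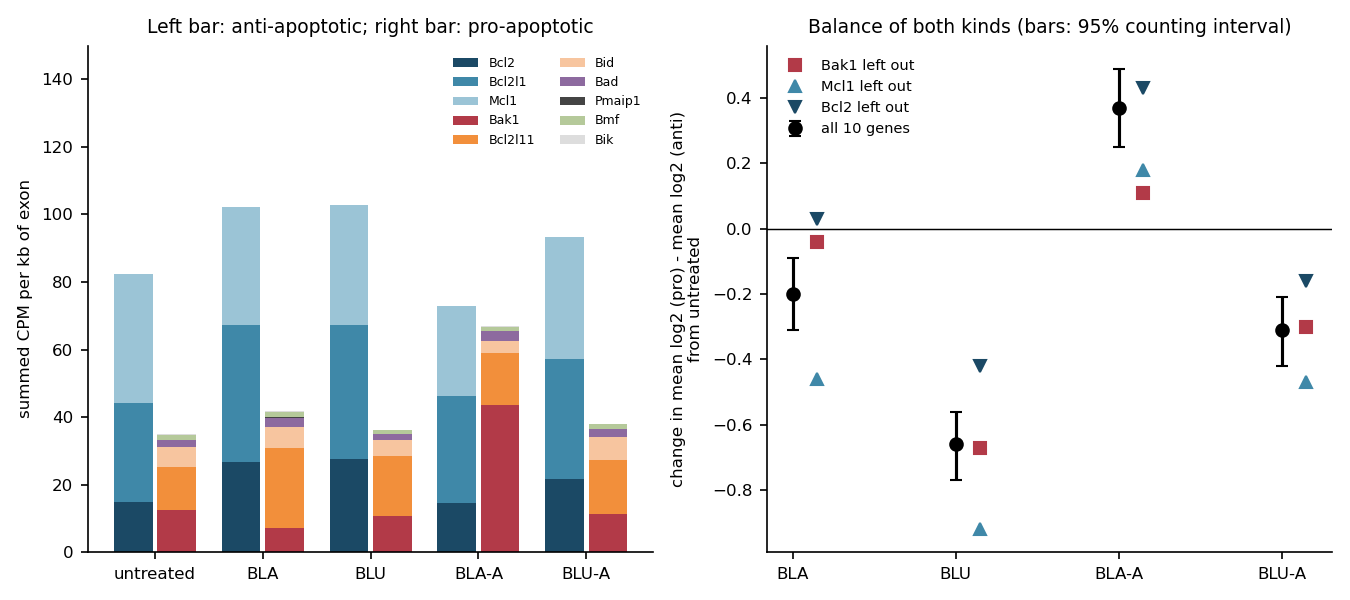
Left, CPM per kb of exon summed over the 3 anti-apoptotic genes (left bar) and the 7 pro-apoptotic genes (right bar) in each library, stacked by gene; right, change of the balance from untreated on the log2 scale in each treatment, with its 95% counting interval and without Bak1, Mcl1 or Bcl2. In BLA-A the bars are nearly level (72.8 and 67) and the change is above 0 (0.37), but 0.11 without Bak1.

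Per kb of exon, the order of levels in untreated cells was Mcl1 (38.2), Bcl2l1 (29.3), Bcl2 (14.8), Bcl2l11 (12.8), Bak1 (12.6), Bid (5.79), Bad (2.19), Bmf (1.32), Bik (0.323) and Pmaip1 (0). Mcl1 and Bcl-xL were thus the leading survival transcripts on this scale. In BLA-A Bak1 came first at 43.5 CPM per kb of exon, above Bcl2l1 (31.5) and Mcl1 (26.6). The scale matters, since reads in introns were counted too and Bcl2 spans 176 kb and Mcl1 4.46 kb. Per kb of gene span the untreated order began with Mcl1 (29.9), Bcl2l11 (3.54) and Bak1 (3.29), and Bcl2 came in the seventh place (0.776).

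Ratios within a library do not depend on the scaling. There were 1.02 Bcl2 reads for each Mcl1 read untreated, 2.02 in BLA and 1.45 in BLA-A, and 2.05 in BLU and 1.58 in BLU-A, so the share of Bcl2 among them was larger in all 4 treated libraries. Mcl1 made up 46.4% of the anti-apoptotic sum per kb of exon untreated and 34.3% to 38.9% in the treated libraries. There were 0.969 Bim reads for each Mcl1 read untreated, 1.96 in BLA and 1.69 in BLA-A, and 1.43 in BLU and 1.27 in BLU-A. Against Bcl2, Bim had 0.946 reads for each read untreated, 0.968 in BLA and 1.16 in BLA-A, and 0.701 in BLU and 0.804 in BLU-A. In BLA, Bim and Bcl2 thus kept nearly their untreated ratio although both were higher.

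The gene span went along with the direction of change over all genes. With the annotated genes in 5 classes by span, the median change in BLA went from -0.18 in the shortest class (up to 9.17 kb) to 0.16 in the longest (from 82.1 kb), in BLU from -0.16 to 0.18, and in BLU-A from -0.04 to 0.06, whereas in BLA-A it went from 0.17 to -0.16. Bcl2, the longest of the 10 genes, was above the median of its span class in each treatment, with -0.02 in BLA-A and 0.55 to 0.90 in the others. Mcl1, the shortest, had values above the median of its class in BLA and BLU (-0.13 and -0.10). Its values were below that median in BLA-A (-0.52 beside 0.17) and, by little, in BLU-A (-0.07 beside -0.04). Bak1 in BLA-A (1.77) stood beside a class median of 0.03. The part of gene span in these changes was not tested.

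**Figure D5:**
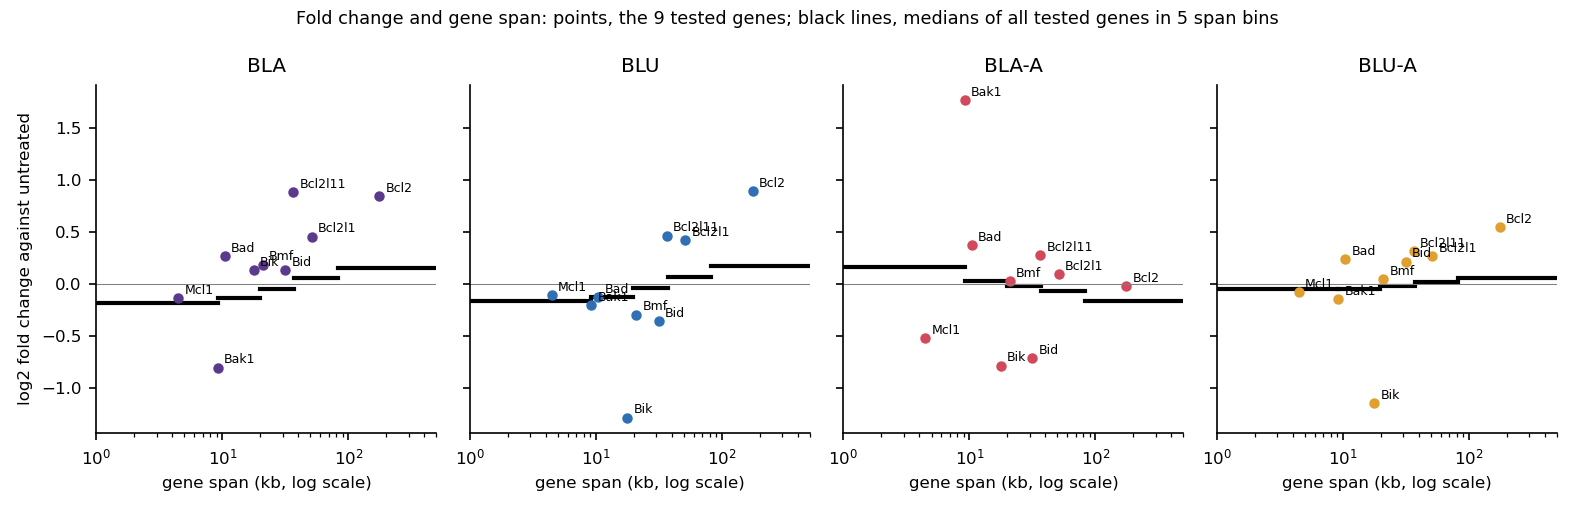
Log2 fold change against untreated (y axis) over gene span in kb (x axis, log scale), 1 panel per treatment; points are the 9 genes and black lines are the medians of all annotated tested genes in 5 span classes. The medians are higher for longer genes in BLA and BLU and lower in BLA-A, and Bak1 in BLA-A (1.77) lies farthest from its class median.

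Tests across libraries were possible only for groups of treatments. The first set the 4 treated libraries against the untreated library, which is then assumed to vary like them. Differences between the 4 treatments are part of the spread, so a change in 1 treatment alone widens it. With edgeR's quasi-likelihood test and Benjamini-Hochberg adjustment over all genes tested, 0 of the 9 genes passed an adjusted p of 0.05, where 0.0227% of all genes (4 of 17647) did; DESeq2 gave 0 of 9 as well. The smallest edgeR p was that of Bcl2l11, with a change of 0.51 ± 0.31 (SE) and an edgeR adjusted p of 0.999, and 0 of the 9 had an unadjusted p under 0.05, where 2.73% of all genes did. Bcl2 followed with 0.62 ± 0.38 (SE) and an edgeR adjusted p of 0.999, being higher in 3 of 4 treated libraries. Bak1 had 0.54 ± 0.92 (SE), with an edgeR adjusted p of 0.999, and its direction rested on the BLA-A library, without which the value was -0.36.

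The second test set the 2 nanoparticle libraries against the 2 plain extracts, so that the berry is part of the spread. Of the 9 genes 0 passed the adjusted p by edgeR or by DESeq2, as did 0% of all genes by edgeR; 1108 genes, or 6.28%, had an unadjusted edgeR p under 0.05. Bak1 was the 1 member among those, with mean levels of 66.1 and 21.7 CPM, a change of 1.69 ± 0.61 (SE), an edgeR p of 0.0289 and an adjusted p of 0.682. Both nanoparticle libraries lay above both extracts, but BLU-A only by 27.5 against 26.2 CPM. Bcl2 was lower with the nanoparticles, at 168 against 251 CPM on average, a change of -0.53 ± 0.24 (SE) with an edgeR p of 0.0602 and an adjusted p of 0.682. Bcl2l1 (-0.20 ± 0.20) and Bcl2l11 (-0.34 ± 0.23) also had both nanoparticle libraries under both extracts, as they did not overlap in 4 of the 9 genes beside 41.2% of all genes.

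The third test set the 2 blackberry libraries against the 2 blueberry libraries. Again 0 of the 9 genes passed by edgeR or DESeq2, as did 0% of all genes by edgeR, and 0 of the 9 had an unadjusted p under 0.05 where 631 genes, or 3.58%, did. The smallest member p by edgeR was 0.142, of Bak1, with a change of 1.27 ± 0.76 (SE) and an adjusted p of 0.914. Mcl1 was lower (-0.17 ± 0.24), and Bad (0.32 ± 0.35) and Bik (1.62 ± 0.99) were higher, in both blackberry than in both blueberry libraries, which makes 3 of the 9 genes with no overlap beside 33.2% of all genes.

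Among the other 16 genes of the family 9 passed the filter. Above 1 in BLA-A were 3 of them, Bax, Bcl2l15 (1.17) and Bnip3 (1.06), beside 8.54% of all genes tested, and 0 were past 1 in BLA, BLU or BLU-A, beside 16.5%, 10.3% and 7.85%. The median change of these 9 genes was 0.54 in BLA-A and 0.04 to 0.27 in the other 3 treatments. Bbc3, the BH3-only gene of Puma, was above untreated in all 4 libraries, by 0.60 to 0.91, from 6.54 CPM untreated to 12.7 in BLU-A, with an edgeR p of 0.0667 and an adjusted p of 0.999 for treated against untreated. With Bax, Bok, Bbc3 and Bcl2l2 added and Pmaip1 left out, the balance over 9 pro- and 4 anti-apoptotic genes changed by -0.11 in BLA and 0.49 in BLA-A, and -0.58 in BLU and -0.13 in BLU-A.

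All 11 genes that act once the outer membrane is open passed the filter. Cycs, the gene of cytochrome c, was the 1 past 1 in size, above untreated in BLA (1.23) and BLA-A (1.83), from only 7 reads untreated to 35 in BLA and 51 in BLA-A, beside 16.5% and 20.9% of all genes past 1, and near-identical copies of Cycs in the genome make its count uncertain. The medians of these 11 genes lay between -0.14 and 0.08. Casp9, the initiator caspase of the apoptosome, changed by 0.79 in BLA-A and by -0.19 to 0.19 elsewhere. Of 14 genes that act on the members, 1 was past 1 above and 1 past 1 below untreated, both in BLA, where 16.5% of all genes were past 1. Ddit3, a stress factor that can raise Bim transcription, changed by 1.12 there, and Dynll1, the dynein light chain that holds Bim, went from 177 to 88.1 CPM. Trp53, which can raise Puma and Noxa, had 37.8 CPM in BLA-A and 73.3 to 86 in the other libraries.

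Likeness was measured as the Euclidean distance between the 4 log2 changes, as a description. The closest pairs were Bad and Bmf (0.44) and Bcl2l1 and Bcl2l11 (0.46), the second of which has a member from either side of the balance. The most isolated were Bak1, 1.80 from its nearest member, Bad, and Bik, 1.64 from Mcl1. Among the 9771 genes with at least 10 CPM on average, the 3 nearest to Bak1 were ND4 (0.17), Slc39a1 (0.17) and H4c1 (0.19), with changes in BLA-A of 1.81, 1.63 and 1.90.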

How the data were processed

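RNA from 4T1 cells was sequenced by the study, and per the submitters' processing notes the genome build was GRCm39 and DESeq2 1.36.0 was used. The authors aligned reads with STAR and counted them over whole genes, introns included, in OmicsBox with a strand-specific setting and a minimum mapping quality of 10; the deposited table holds these unnormalized counts for 40402 genes in 15 columns. The authors' tables of fold changes, p-values and enrichment scores were not used. The 3 columns of a condition were averaged and rounded to 1 library of about the depth of each column. Genes were kept where any library reached 1 CPM, scaled by TMM and compared as log2(CPM + 0.5). Groups of libraries were tested with edgeR 4.0.16 (R 4.3.3) by the quasi-likelihood test with Benjamini-Hochberg adjustment. DESeq2 1.42.0 was the alternative, and the fits were tested on simulated data. The common coefficient of variation between the 5 libraries was 0.452. Residual degrees of freedom were 3 for treated against untreated and 2 for the other tests. A gene that did not pass may thus still have changed. Gene spans and exon lengths came from GENCODE M39. Named were all 10 genes, those of 3 further lists of family genes, later steps and regulators that passed 1 in size or were needed for a family total, and a few chosen after their values were seen (Ggnbp1, Bcl2l13, Bbc3, Casp9, Trp53). The genes and lists were chosen with earlier results of these data known. Same-numbered columns did not deviate together, with a mean correlation of -0.000893 over 30 pairs (-0.0247 to 0.0172). P-values measure the spread between libraries of different treatments, so differences between treatments are part of it, and part may be technical.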

Additional observations from a re-analysis of the deposited data

Results flagged for a closer look

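In 2 of the 9 genes that passed the filter, 1 of the 4 treated libraries stood far from the others. Mcl1 was at 93 CPM in BLA-A, against 122 to 127 CPM in the other 3, a gap of 0.868 of the whole range. Bak1 was at 105 CPM in BLA-A, against 17.2 to 27.5 CPM, a gap of 0.883 of the range. Both gaps are above Dixon's critical value for 4 samples, which chance alone passes in about 1 in 20 genes. Of all 17647 genes tested, 12.7% passed it, 8.69% with BLA-A as the library that stood apart. The 4 libraries had different treatments, so treatment and library cannot be told apart, and the Bak1 reads are tied to those of Ggnbp1 as described.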

How the results depend on the processing

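With 1 library per condition, depth limits the rare genes (Bik, Pmaip1) most. It also limits Bmf, whose changes all had intervals that included 0, and Bad in BLU (-0.38 to 0.13). With a pseudocount of 2 CPM, or with 1 CPM required in every library, Bik no longer counted past 1 in BLU or BLU-A (0 and 0 genes in both settings), and with a pseudocount of 0.1 CPM Bik joined Bak1 in BLA-A (2 genes, Bik at -1.03). The pseudocount of 2 CPM gave 943 genes of all past 1 in BLA, 1861 in BLA-A, 401 in BLU and 209 in BLU-A (2907, 3696, 1817 and 1386 with 0.5 CPM and the filter used above), 1 CPM in every library gave 1092, 1834, 567 and 277, and 0.1 CPM gave 2742 in BLU and 2367 in BLU-A. Fewer genes were tested under the stricter filter. Scaling by totals turned the split of calls in BLA-A from 1507 above and 2189 below to 1074 and 2721, and put Bmf at -0.16 there; it also moved Bcl2 in BLA-A to -0.21, Bcl2l1 to -0.09 and Bcl2l11 to 0.09, and DESeq2 size factors put Bcl2 at 0.04.

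The change of the balance per kb of gene span turned positive in BLA (0.30), BLU (0.06) and BLU-A (0.16) and was 1.32 in BLA-A; per kb of exon it was -0.05, -0.27, -0.05 and 1.12 in BLA, BLU, BLU-A and BLA-A. With all family genes it was -0.13 in BLU-A. In BLA it was 0.03 without Bcl2, -0.46 without Mcl1, -0.04 without Bak1 and -0.32 without Bcl2l11. In BLU it was -0.42 without Bcl2, -0.92 without Mcl1, -0.78 without Bcl2l11 and -0.49 without Bik. In BLA-A it was 0.49 without Bcl2l1, 0.18 without Mcl1, 0.11 without Bak1, 0.52 without Bid and 0.54 without Bik, and in BLU-A -0.16 without Bcl2, -0.47 without Mcl1 and -0.13 without Bik. Leaving out each numbered column moved it by at most 0.02, to -0.21 to -0.20 in BLA, -0.67 to -0.66 in BLU, 0.35 to 0.38 in BLA-A and -0.33 to -0.30 in BLU-A. The columns agree more closely than counting noise, so this step could hardly move the balance and is no check of it.

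For treated against untreated libraries, 1 CPM in every library gave 2 genes in all with adjusted p under 0.05, DESeq2 17, and leaving out the BLA-A library 34, with 0 of the members in each. Without BLA-A the change of Bak1 was -0.36 (edgeR adjusted p 0.684) and that of Bid 0.02. The change of Bmf, 0.01, lay at 0 and turned sign to -0.03 with 1 CPM in every library, -0.0016 by DESeq2, -0.0013 with its size factors, -0.06 by totals, -0.03 and -0.01 without columns 2 and 3, -0.07 without BLA and -0.002 without BLA-A. For nanoparticles against extracts DESeq2 gave 34 genes in all and berry as a covariate 5, and for blackberry against blueberry DESeq2 gave 13 and formulation as a covariate 7, again with 0 members. Taking the columns as separate samples, although they agree more closely than counting noise, gave 2 members (Bcl2l1, Bcl2l11) and 3553 genes in all for treated against untreated, 4 (Bcl2, Bcl2l1, Bak1, Bcl2l11) and 7812 for nanoparticles, and 3 (Bad, Bmf, Bik) and 5848 for blackberry. With the replicate number as a block it gave 0 and 2498, 4 (the same 4) and 6083, and 1 (Bik) and 3987; the numbers did not pair the columns. The cause of these differences was not tested.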
